A study of Rattus norvegicus with 20 samples.

Results

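The genes described here encode molecular chaperones and their partners: the heat shock proteins HSP70, HSP110, HSP90 and HSP40 (J proteins), the small heat shock proteins, the BAG proteins, the cytosolic chaperonin TRiC, and the heat shock factors that control many of them. They were chosen as a list of symbols, and 46 of 46 were found among the 17337 gene symbols of the count table. The list is headed as cytosolic, but 4 members (Hspa9, Hspd1, Hspe1 and Trap1) act in mitochondria. Expression was measured by 3' end RNA sequencing of alveolar type II cells from Sprague-Dawley rats that had spread for 4 days on fibronectin-coated silastic membranes into monolayers resembling type I cells. Each of 4 groups held 5 libraries, 1 for each of 5 animals, and each library pooled 4 monolayers of its animal. Unstretched cells (NS) received 0.01% DMSO for 24 h. Stretched cells (S) received the same vehicle for 18 h and then 6 h of cyclic biaxial stretch, with a 25% change in surface area at 15 cycles per min. The groups NS_PI and S_PI were given GSK2606414 at 1 µM in place of vehicle, a compound that inhibits the kinase PERK, and their DMSO content is not recorded in the labels. For unstretched cells with inhibitor the labels give 18 h in one place and 24 h in another. No vehicle-free group was analysed here, so all 4 groups share 4 days of culture and a drug or vehicle.

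Chaperones bind unfolded stretches of other proteins and keep them from aggregating. HSP70 does so in cycles of ATP use: J proteins deliver clients and start the cycle, while HSP110 and BAG proteins release ADP and end it. HSP90 takes over many clients from HSP70 through adaptor proteins, and TRiC encloses others, actin and tubulin among them. When unfolded protein builds up in the cytosol, the transcription factor HSF1 is freed from chaperones and induces their genes through heat shock elements, which are inverted repeats of the triplet GAA. PERK belongs to another pathway, the response to unfolded protein in the endoplasmic reticulum.

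The heat shock element was searched for in the 250 bases before the start of each gene, in promoter sequences of RefSeq (build GRCr8, another build than the rn6 of the counts). Promoters were found for 39 of the 46 members. The short form searched was GAANNTTC or TTCNNGAA, each of which reads the same on both strands. The long form was GAANNTTCNNGAA or TTCNNGAANNTTC, which contain the short form and are each other's complement. The short form was in the promoters of 17 of the 39 members (43.6%), against 13.5% of all 33469 promoters and 10.1% of the 6723 promoters of tested genes. The long form was in 4 members (10.3%: Hspa8, Hspd1, Hspe1 and Hsph1), against 0.663% of all promoters and 0.342% of those of tested genes. Of 37 tested members with a promoter, 9 of 17 with the short form and 8 of 20 without it were called higher or lower in at least 1 of the stretch comparisons described further on. With the long form, 3 of 4 were called. Of all 8320 tested genes, 37.8% were called in at least 1 of them. The comparisons differed when taken singly. Without inhibitor 5 of 17 with the short form and 7 of 20 without it were called higher, beside 12.5% of all genes. With inhibitor these were 8 of 17 and 3 of 20, beside 15.2%. Of the 4 with the long form, 1 was higher without inhibitor and 3 with it. The 9 called members with a match are printed from 5′ to 3′ on the gene's own strand, from 15 bases before the first match to 15 after the last, or as far as the window reaches, with the matches in capitals.
Hsph1, chr12:10427248-10427359, plus strand: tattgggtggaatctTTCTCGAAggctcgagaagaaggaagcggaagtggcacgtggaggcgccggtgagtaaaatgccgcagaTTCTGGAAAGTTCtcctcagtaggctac
Hspa8, chr8:50080286-50080486, plus strand: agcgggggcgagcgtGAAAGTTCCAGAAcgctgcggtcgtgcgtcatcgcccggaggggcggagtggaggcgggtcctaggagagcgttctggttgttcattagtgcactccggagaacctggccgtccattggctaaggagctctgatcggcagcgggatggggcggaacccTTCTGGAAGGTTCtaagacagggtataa
Hspd1, chr9:64084247-64084287, minus strand: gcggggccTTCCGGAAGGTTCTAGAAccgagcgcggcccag
Hspb1, chr12:26432388-26432445, minus strand: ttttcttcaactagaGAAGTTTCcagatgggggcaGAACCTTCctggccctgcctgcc
Dnajb1, chr19:41431142-41431167, minus strand: gcatcgggaggggcgGAAGGTTCtgg
Dnaja1, chr5:60638208-60638245, plus strand: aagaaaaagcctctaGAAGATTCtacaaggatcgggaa
Dnajb6, chr4:6232144-6232181, minus strand: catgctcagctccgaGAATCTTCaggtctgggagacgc
Bag3, chr1:192533313-192533350, plus strand: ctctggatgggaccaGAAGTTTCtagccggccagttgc
Cct6a, chr12:32519090-32519127, minus strand: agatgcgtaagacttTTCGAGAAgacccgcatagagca
Hspd1 and Hspe1 lie head to head, and the long form of Hspd1 is the same stretch of DNA as that of Hspe1, read on the other strand. The distance from the first base of the nearest match to the start was 11 bases in Dnajb1, 31 in Hsph1, 50 in Hspa8, 109 in Hspb1, 132 in Bag3 and 181 in Dnaja1. Hspa1a held neither form in this window, and the promoter of Hspa1b was not used here.

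Each library held between 999209 and 3131541 gene counts. Levels are given in CPM, counts per 1000000 gene counts after scaling, and the detection floor of 3 counts was 1.07 to 3.05 CPM. Floors cover counting error only. Of the 46 members, 43 passed the filter on low counts and were tested, within 8320 tested genes. Bag4, an HSP70 partner at 4.06 to 6.61 CPM in the group means, passed the filter only through stretched libraries. Hsp90aa1, the inducible HSP90, had 0 to 6 counts per library and Dnaja4, a J protein, 0 to 7. Bag5 had 0 counts in 20 of 20 libraries. Taken singly, the shallowest library allows a level of up to 3.05 CPM by counting error alone, and the 20 together allow less. Bag5, Hsp90aa1, Hspa8, Hspa1a and Hspa1b appear under 2 identifiers each in the authors' deposited table, the same 2 for Hspa1a and Hspa1b. Whether reads of these genes were lost in the assignment to genes was not tested, and the floor does not cover such a loss. Records aligned to several places, which were not assigned to genes, made up 35.5 to 57.7% of each library, so levels of members with near-identical copies can be understated. Hspa1a and Hspa1b encode nearly the same protein, and the share of their reads that could be told apart is unknown. Summed CPM of 9 type I markers was 1581.7 to 5775.4 in NS and 981 to 5213.5 in S, with Rtkn2 and Aqp5 below the filter and 3 of 7 tested lower in S. With inhibitor the sums were 1687.4 to 6224.2 CPM unstretched and 940 to 5060.1 CPM stretched, with 5 lower and 1 higher. Summed CPM of 8 type II markers was 290.2 to 749.5 in NS and 275 to 727 in S. With inhibitor it was 282 to 654 unstretched and 211 to 639 stretched. Of 7 type II markers tested, 0 were called in either stretch comparison. Of 5 endothelial markers 0 passed the filter. Their sum was 0.493 to 2.17 CPM in NS, 0 to 4.07 in S, 0 to 1.86 in NS_PI and 0 to 2.86 in S_PI. Of these, Cdh5 was at 0 in every library. Markers of 8 leukocyte genes summed to 499 to 2084.8 CPM in NS and 928 to 2665.2 in S, and 4 of 7 tested were higher in stretched cells in both comparisons. Markers of 6 fibroblast genes summed to 2742.6 to 6487.0 CPM in NS and 3400.6 to 11355.5 in S. Most of this was Col1a1, with a mean of 3939.4 of 4400.6 CPM in NS and 6296.3 of 6847.9 CPM in S. Col1a2 and Lum were below the filter, and Pdgfra averaged 4.47 CPM in NS and 2.37 CPM in S. Of 4 tested, 1 was higher in S and 2 were higher with stretch under inhibitor. Beside these marker counts, 12.5% of all tested genes were called higher and 12.4% lower in S than in NS. With inhibitor 15.2% were called higher and 15.3% lower with stretch. With inhibitor the unstretched and stretched ranges were 592 to 1911.0 and 981 to 2378.9 for leukocyte markers, and 2654.6 to 9378.9 and 3333.5 to 12806.4 for fibroblast markers. The part of other cell types in the results was not tested. In such bulk libraries a change in the share of cells cannot be told apart from a change in RNA per cell.

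S vs NS asked what stretch does to these genes with vehicle, and S_PI vs NS_PI what it does with the PERK inhibitor. In both comparisons the inducible HSP70 genes Hspa1a and Hspa1b, the HSP110 genes Hspa4l and Hsph1, the heat shock factor Hsf2, the J proteins Dnaja1 and Dnajb1 and the BAG protein gene Bag3 were higher in stretched cells. Without inhibitor 13 of 43 tested members were higher and 1 was lower at an adjusted p below 0.05. That is 30.2% higher, beside 12.5% of all 8320 tested genes, and 2.33% lower, beside 12.4%. With inhibitor 12 were higher (27.9%, beside 15.2% of all genes) and 0 lower (beside 15.3%). Called in either direction were 32.6% of the members without inhibitor and 27.9% with it, beside 24.9% and 30.5% of all genes. The median log2 fold change of the members was 0.21 without inhibitor and 0.28 with it, beside -0.01 and -0.02 for all tested genes. Calls in both comparisons were made for 8 members, without inhibitor alone for 6 and with inhibitor alone for 4. That is 18 of 43 called in at least 1 comparison, beside 37.8% of all tested genes. The share of all genes called in both was not counted, so the 8 have no such value beside them. The 25 others were called in neither, and 40 of 43 had the same sign in both (93%, beside 80.5% of all tested genes). These comparisons share no library but come from the same 5 animals. With no term for the animal in the fit 7 members were higher in each comparison, and with the compared groups alone 6 and 11. Leaving out animal 2 or 3 left 7 higher without inhibitor, and leaving out animal 2 or 3 left 8 and 5 with it. Calls of all genes, in either direction, fell as well. Without inhibitor 2075 became 818 with no animal term, 1048 with the compared groups alone, and 1418 and 1437 without animal 2 or 3. With inhibitor 2534 became 1229, 2160, 2146 and 1872 in the same order. The 2 groups did not overlap for 2 members higher in S than NS and 0 lower (beside 3.45% and 3.89% of all genes), and for 7 higher in S_PI than NS_PI (beside 7.16%).

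**Figure D1:**
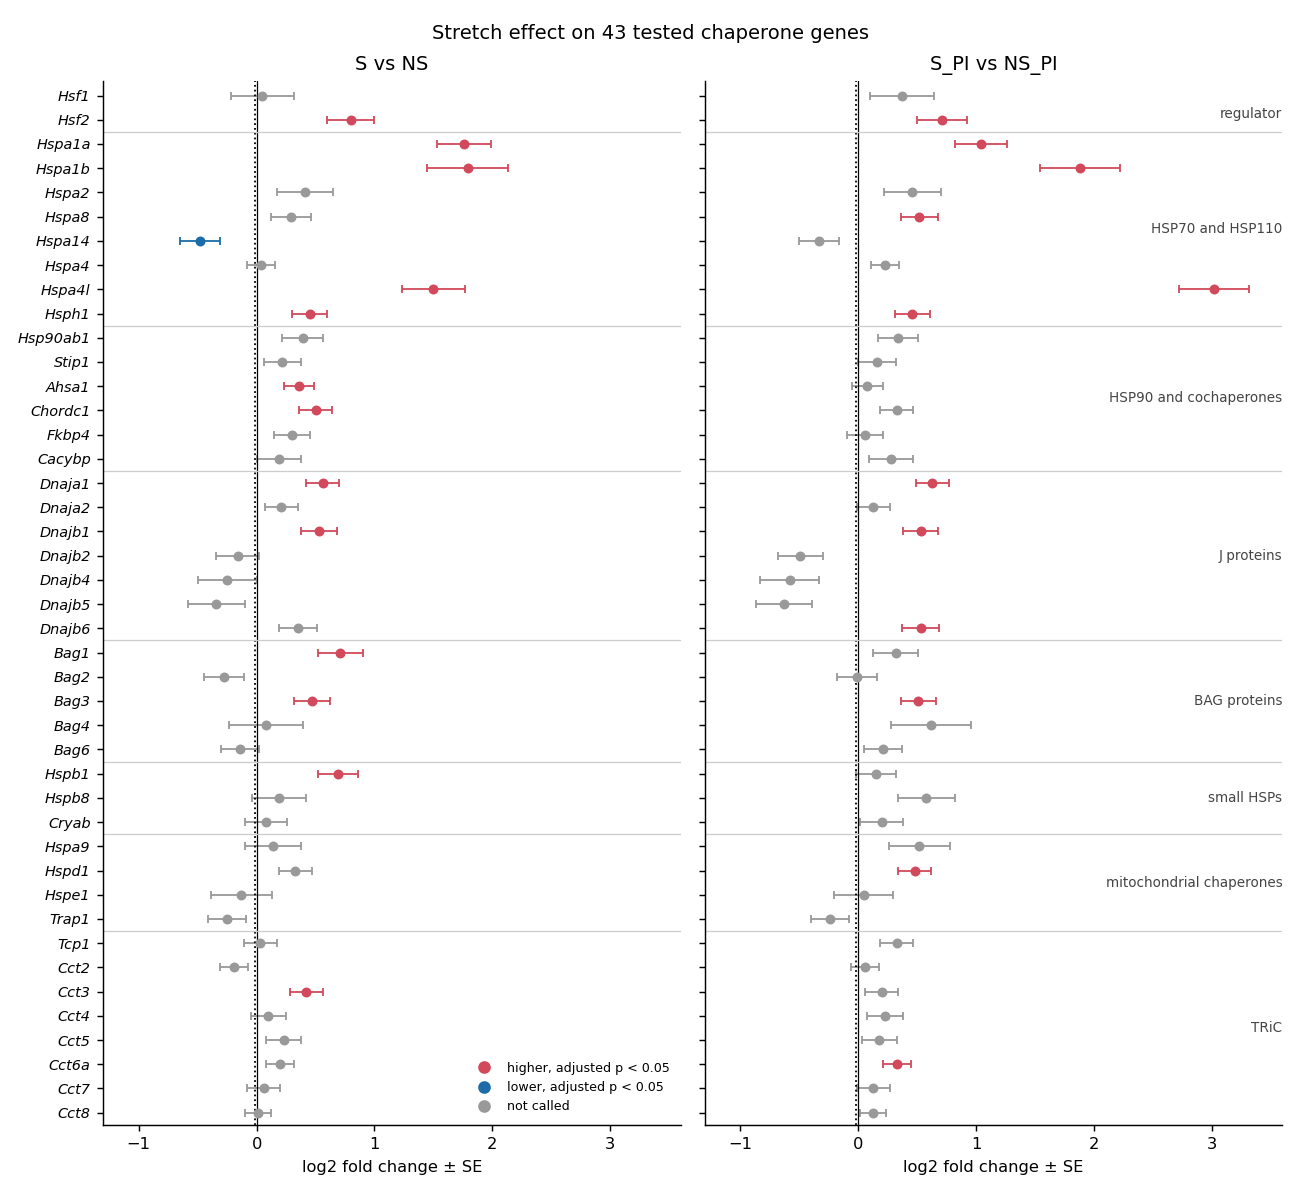
Log2 fold change with stretch for the 43 tested members, ordered by role, without inhibitor (left) and with it (right). Points are edgeR estimates and bars their standard errors, n = 5 animals per group, coloured by the call at an adjusted p below 0.05, and the dotted line is the median of all tested genes (-0.01 and -0.02). Hspa1a, Hspa1b and Hspa4l stand to the right of the other members in both panels, and the TRiC genes lie between -0.19 and 0.42.

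Among the regulators Hsf2 was higher in stretched cells and Hsf1 was not called. HSF1 is the main activator of the heat shock response, and HSF2 is a related factor that can join it on DNA. Hsf2 (ENSRNOG00000000808) stood at 54.9, 75.5, 68.8, 88.4 and 72.1 CPM in unstretched cells of animals 1 to 5 and at 157, 176, 122, 97.6 and 79.8 CPM in their stretched cells. With inhibitor the values were 76.3, 75.4, 48.5, 78 and 66.1 CPM unstretched and 76.8, 168, 143, 96.8 and 90.7 CPM stretched. Animals 1, 2 and 3 had the largest increases without inhibitor and animals 2 and 3 with it, and the groups overlapped in both. The log2 fold change was 0.80 ± 0.20 (SE; adjusted p = 0.00772) without inhibitor and 0.71 ± 0.21 (adjusted p = 0.0116) with it, in 5 of 5 animals each. The call with inhibitor was lost on leaving out animal 2 (adjusted p = 0.0674) or animal 3 (0.111; 0.00196 to 0.111 across alternatives). Hsf1 (ENSRNOG00000021732) was measured at 17.5, 26.6, 21.7, 13.5 and 14.1 CPM in NS and 6.03, 38.9, 19.2, 13.2 and 23.2 CPM in S. Its values were 14.9, 20.0, 17.9, 10.7 and 17.1 CPM in NS_PI and 21.2, 34.2, 23.3, 16 and 10.2 CPM in S_PI. These ranges overlapped, and the log2 fold changes were 0.05 ± 0.27 without inhibitor, whose sign turned under 5 alternatives, and 0.37 ± 0.27 with it (adjusted p = 0.916 and 0.316).

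The stress-inducible HSP70 genes Hspa1a and Hspa1b rose more than any other member in S vs NS. Hspa1a was at 22.6, 16.8, 22.3, 24.2 and 39.6 CPM in NS and at 72.9, 118, 116, 71.2 and 54.7 CPM in S, animals 1 to 5. With inhibitor it was at 32.6, 44.2, 37.4, 40.9 and 49.8 CPM in NS_PI and 71.6, 109, 105, 70.9 and 65.4 CPM in S_PI. Every stretched library lay above every unstretched one in both comparisons, with the highest stretched values in animals 2 and 3. Without inhibitor Hspa1a averaged 25.1 ± 8.58 CPM in NS and 86.7 ± 28.9 CPM in S (mean ± SD over 5 animals), a 3.39-fold rise and a log2 change of 1.76 ± 0.23 (adjusted p = 2.85e-05). With inhibitor it rose 2.05-fold, by 1.04 ± 0.22 (adjusted p = 0.00139). Hspa1b was at 38.8, 16.3, 21.1, 35.9 and 41.8 CPM in NS and 82.5, 167, 189.7, 63 and 63.1 CPM in S. Its inhibitor groups held 32.6, 32.1, 19, 45.1 and 38.6 CPM in NS_PI and 105, 153, 208, 83.9 and 97.5 CPM in S_PI. Again no stretched library overlapped an unstretched one, and animals 2 and 3 were the highest when stretched and the lowest in NS. The log2 fold change of Hspa1b was 1.79 ± 0.34 (adjusted p = 0.000954) without and 1.88 ± 0.34 (adjusted p = 0.000328) with inhibitor. With the counts of both genes summed, an alternative chosen after seeing the data, the changes were 1.77 and 1.48, both called.

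Of the other HSP70 genes, Hspa8 was called with inhibitor and Hspa14 without it. Hspa8 encodes the constitutive cytosolic HSP70. Its values were 51.2, 27.6, 24.2, 32.4 and 31.5 CPM in NS and 65.4, 23.6, 39.6, 32.5 and 46.4 CPM in S. With inhibitor they were 47.5, 25, 24.3, 38.6 and 27.5 CPM unstretched and 81.9, 29.9, 44.3, 38.1 and 45 CPM stretched. Animal 1 was the highest in each of the 4 groups, and the groups overlapped. Hspa8 rose by 0.52 ± 0.16 with inhibitor (adjusted p = 0.021, 4 of 5 animals) and had a log2 change of 0.29 ± 0.17 without it (adjusted p = 0.207). The call with inhibitor was lost on leaving out animal 1 (adjusted p = 0.0913), 3 (0.0993) or 5 (0.0759; 0.0158 to 0.232 across alternatives). Hspa14, an HSP70 bound to ribosomes, was the 1 member called lower, at 40.1 ± 5.71 CPM in NS and 28.9 ± 6.91 CPM in S and lower in 5 of 5 animals. Its log2 change was -0.48 ± 0.17 (adjusted p = 0.0454), a call that held under 3 of 13 alternatives and was lost on leaving out any 1 of the animals 1, 2, 3, 4 or 5 (adjusted p = 0.192, 0.114, 0.0745, 0.0657 and 0.0892; 0.02 to 0.192 across alternatives). Of these 3, 1 sums Hspa1a and Hspa1b and leaves the counts of Hspa14 unchanged. Hspa2, an HSP70 best known from the testis, had log2 changes of 0.41 ± 0.24 and 0.46 ± 0.24 and was not called.

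HSP110 proteins release ADP from HSP70, and of their 3 genes Hspa4l and Hsph1 rose in both comparisons. Of all tested genes 12.5% were called higher without inhibitor and 15.2% with it. Hspa4l (ENSRNOG00000010819) was at 14.3, 10.4, 11.2, 5.89 and 7.05 CPM in NS and 75.4, 18.6, 16.7, 14.2 and 27.7 CPM in S. With inhibitor it was at 8.38, 3.75, 4.75, 4.18 and 1.49 CPM in NS_PI, where 2 to 18 reads were counted, and at 95.1, 25, 22.7, 34.3 and 23.2 CPM in S_PI. Animal 1 was the highest in each group, and the groups were apart with inhibitor but overlapped without it. Hspa4l rose 2.84-fold without inhibitor (log2 change 1.5 ± 0.27, adjusted p = 0.000552) and 8.08-fold with it (3.02 ± 0.30, adjusted p = 5.6e-07), in 5 of 5 animals each. Without animal 1 the log2 changes were 1.18 and 2.79, both called. Hsph1, the stress-inducible HSP110, averaged 99.5 ± 32.5 and 131 ± 21.1 CPM in NS and S, and 103 ± 27.6 and 140.3 ± 27.9 CPM in NS_PI and S_PI. It rose by 0.45 ± 0.15 without and 0.46 ± 0.15 with inhibitor (adjusted p = 0.0349 and 0.0236), in 5 of 5 animals each. The call without inhibitor was lost on leaving out animal 1, 2 or 3 (adjusted p = 0.0951, 0.103 and 0.114; 0.0218 to 0.281 across alternatives). The call with inhibitor was lost on leaving out animal 1 or 3 (adjusted p = 0.074 and 0.0796; 0.0166 to 0.189 across alternatives). Hspa4, the third of these genes, had log2 changes of 0.04 ± 0.12 and 0.23 ± 0.12 at 329 to 398 CPM in the group means and was not called.

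**Figure D2:**
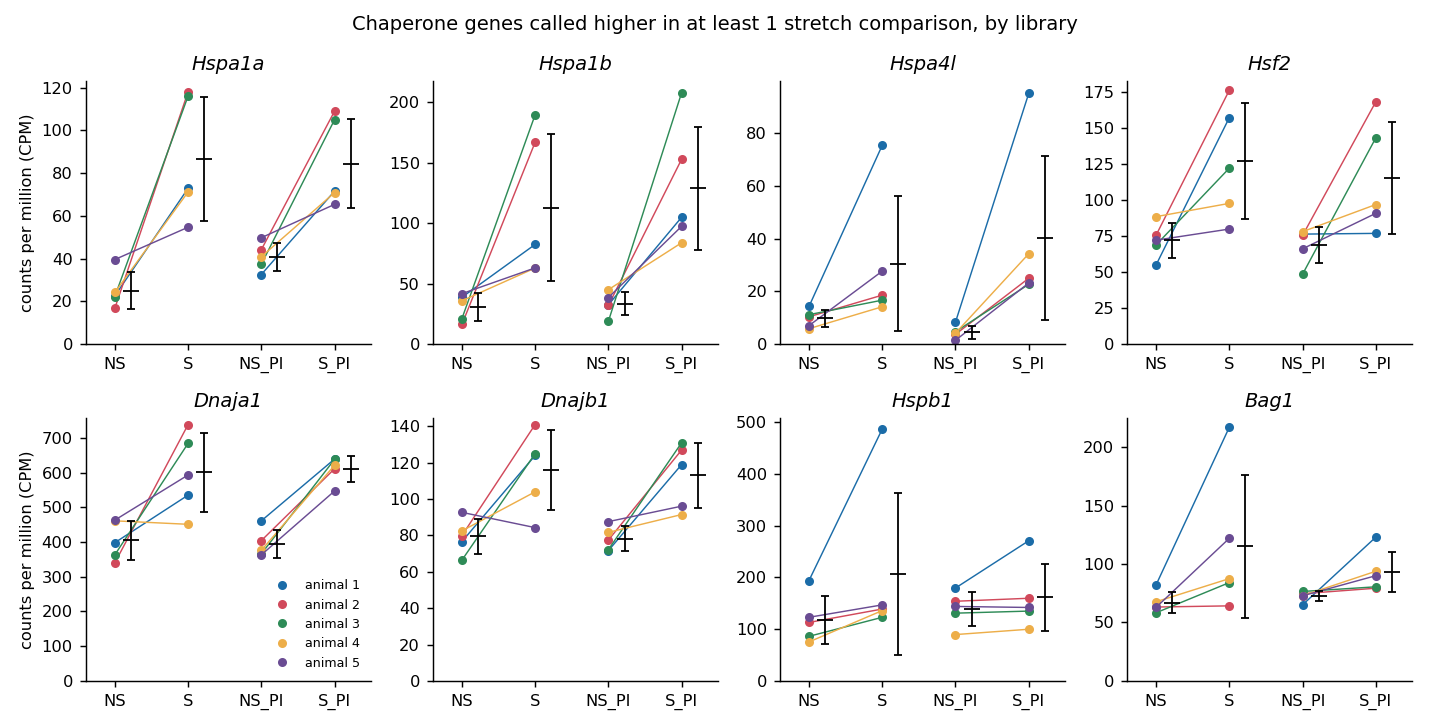
Level of 8 members in every library, in CPM, with 1 colour for each animal, lines joining unstretched and stretched cells of the same animal, and black marks for the mean and SD of 5 libraries. Hspa1a rises in 5 of 5 animals in both comparisons, while Hspb1 and Bag1 reach 487 and 217 CPM in the stretched cells of animal 1 and 123 to 147 and 64.2 to 122 CPM in those of the other animals.

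Of the HSP90 genes and cochaperones, Ahsa1 and Chordc1 rose with stretch without inhibitor and 0 of 6 tested genes were called with it. That is 33.3% and 0% called higher, beside 12.5% and 15.2% of all tested genes. HSP90 is among the most abundant proteins of the cytosol, and Hsp90ab1 (ENSRNOG00000019834) encodes its constitutive form. Hsp90ab1 was at 2264.7, 2609.4, 2622.1, 2441.7 and 1604.9 CPM in NS and 5055.0, 2719.3, 2964.0, 2200.5 and 2580.5 CPM in S. With inhibitor its values were 2374.4, 2297.4, 1585.6, 2210.9 and 2255.6 CPM unstretched and 3350.7, 2732.6, 2819.8, 2343.4 and 2451.9 CPM stretched. Stretched cells of animal 1 were the highest in both comparisons and the groups overlapped. The log2 changes were 0.39 ± 0.17 and 0.34 ± 0.17, not called (adjusted p = 0.101 and 0.136), with 95% intervals of 0.01 to 0.76 and -0.03 to 0.71. Without animal 1 the first of these changes was 0.19 (adjusted p = 0.397; 0.0684 to 0.397 across alternatives). Chordc1, an HSP90 cochaperone, rose from 76.1 ± 14.8 to 107 ± 25.1 CPM in 4 of 5 animals, by 0.50 ± 0.14 (adjusted p = 0.0109), and this was lost on leaving out animal 2 (adjusted p = 0.0556; 0.00372 to 0.11 across alternatives). Its log2 change with inhibitor was 0.33 ± 0.14 (adjusted p = 0.0709). Ahsa1, which speeds the ATPase of HSP90, rose from 387 ± 97.1 to 493 ± 83.2 CPM in 5 of 5 animals, by 0.36 ± 0.13 (adjusted p = 0.0466). That call held under 3 of 13 alternatives and was lost on leaving out any 1 of the animals 1 to 5 (adjusted p = 0.0564, 0.178, 0.0624, 0.0835 and 0.074; 0.0211 to 0.253 across alternatives). Of these 3, 1 sums Hspa1a and Hspa1b and leaves the counts of Ahsa1 unchanged, so it is no check of this call. With inhibitor the change of Ahsa1 was 0.08 ± 0.13. Not called in either comparison were Stip1, the adaptor between HSP70 and HSP90 (0.22 ± 0.16 and 0.16 ± 0.16), the immunophilin Fkbp4 (0.30 ± 0.15 and 0.06 ± 0.15) and Cacybp, a calcyclin-binding protein (0.19 ± 0.19 and 0.28 ± 0.19).

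Of the J proteins, Dnaja1, Dnajb1 and Dnajb6 were higher in stretched cells in at least 1 comparison, while Dnajb2, Dnajb4 and Dnajb5 had negative, uncalled changes in both. Dnaja1 (ENSRNOG00000007029), a J protein of the farnesylated DNAJA class, was at 398, 339.9, 363, 461 and 463 CPM in NS and 535, 738, 684, 451 and 593 CPM in S. With inhibitor it was at 461, 404, 366, 376 and 363 CPM unstretched and 639, 611, 638, 621 and 547 CPM stretched, where the groups did not overlap. Stretched cells of animal 4 were level with its unstretched cells without inhibitor, and those of the other animals were higher. Dnaja1 rose by 0.56 ± 0.14 without and 0.63 ± 0.14 with inhibitor (adjusted p = 0.00744 and 0.00233). The first call was lost on leaving out animal 2 (adjusted p = 0.0598) or 3 (0.0517; 0.000914 to 0.0657 across alternatives). Dnajb1, the stress-inducible HSP40, stood at 76.6, 79.9, 66.4, 82.5 and 92.7 CPM in NS and 124, 141, 125, 104 and 84.3 CPM in S. Its inhibitor groups were at 71.7, 77.5, 72.2, 81.7 and 87.6 CPM in NS_PI and 119, 127, 131, 91.5 and 96.1 CPM in S_PI, without overlap. Animals 1, 2 and 3 had the largest increases in both comparisons, and animal 5 was slightly lower in S than in NS. Its log2 changes were 0.53 ± 0.15 and 0.53 ± 0.15 (adjusted p = 0.0132 and 0.0108). Both calls were lost on leaving out animal 2 (adjusted p = 0.0726 and 0.051) and on leaving out animal 3 (0.068 and 0.0678; 0.00502 to 0.0729 and 0.0056 to 0.0678 across alternatives). Dnajb6, which keeps polyglutamine proteins from aggregating, rose from 244 ± 56.2 to 359 ± 86.7 CPM with inhibitor, by 0.53 ± 0.16 in 5 of 5 animals (adjusted p = 0.0168). That call was lost on leaving out animal 3, 4 or 5 (adjusted p = 0.0748, 0.0648 and 0.0623; 0.00359 to 0.144 across alternatives). Its change without inhibitor was 0.35 ± 0.16 (adjusted p = 0.124).

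With inhibitor the negative changes were -0.49 ± 0.19 for Dnajb2, a J protein that binds ubiquitin, -0.58 ± 0.25 for Dnajb4 and -0.63 ± 0.24 for Dnajb5. Adjusted p was 0.0508, 0.0861 and 0.0525, and all of these genes were called lower with library size as the only scaling. Dnajb2 was lower in S_PI, at 29.8, 25, 29.7, 28.2 and 22.5 CPM, than in NS_PI, at 42.8, 40.8, 39.5, 31.6 and 34.9 CPM, without overlap between the groups (beside 6.6% of all genes). Without inhibitor their changes were -0.16 ± 0.18, -0.25 ± 0.25 and -0.34 ± 0.24. Dnaja2, a relative of Dnaja1, had changes of 0.21 ± 0.14 and 0.13 ± 0.14 and was not called.

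BAG proteins bind HSP70 through a shared domain and couple it to other systems. Bag1 and Bag3 rose, and Bag2, Bag4 and Bag6 were not called. Bag1 (ENSRNOG00000008277), which links HSP70 to the proteasome, was at 82.1, 63.2, 58.3, 67.7 and 62.9 CPM in NS and 217, 64.2, 84.1, 87.5 and 122 CPM in S. With inhibitor it was at 65.1, 74.6, 76.5, 72.9 and 72.8 CPM unstretched and 123, 79.3, 80.5, 93.8 and 90.0 CPM stretched. Animal 1 was the highest when stretched, animal 2 hardly moved without inhibitor, and with inhibitor the groups did not overlap. The log2 change was 0.71 ± 0.19 without inhibitor (adjusted p = 0.00956) and 0.32 ± 0.19 with it (adjusted p = 0.204). The call was lost on leaving out animal 5 (adjusted p = 0.0513; 0.00361 to 0.0513 across alternatives). Bag3, which with the small heat shock protein HSPB8 sends aggregates to autophagy, was at 113, 96.7, 64.5, 61.9 and 71.6 CPM in NS and 249, 90.3, 80.3, 88.5 and 94 CPM in S. Its inhibitor groups held 121, 86.3, 68.6, 69.2 and 76.5 CPM in NS_PI and 204, 96.4, 98.6, 112 and 100.2 CPM in S_PI. Animal 1 was the highest in each group and more so when stretched. Bag3 rose by 0.47 ± 0.15 and 0.51 ± 0.15 (adjusted p = 0.0281 and 0.014). Without inhibitor the call was lost on leaving out animal 1, where the log2 change was 0.28 (adjusted p = 0.152), and on leaving out animal 3, 4 or 5 (0.0538, 0.0812 and 0.0618; 0.0116 to 0.266 across alternatives). With inhibitor it was lost on leaving out animal 4 (adjusted p = 0.0733; 0.00926 to 0.26 across alternatives). Changes of the uncalled members were -0.28 ± 0.17 and -0.01 ± 0.17 for Bag2, 0.08 ± 0.31 and 0.62 ± 0.34 for Bag4, and -0.14 ± 0.16 and 0.21 ± 0.16 for Bag6, which handles membrane proteins that miss their target.

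Small heat shock proteins hold unfolded clients without using ATP, and of their 3 genes Hspb1 was called. That is 33.3% called higher without inhibitor and 0% with it, beside 12.5% and 15.2% of all tested genes. Hspb1 (ENSRNOG00000023546) encodes HSP27, which also binds actin filaments. It was at 194, 113, 86.2, 75.4 and 123 CPM in NS and 487, 139, 123, 136 and 147 CPM in S. With inhibitor it was at 179.6, 154, 131, 89.6 and 144 CPM unstretched and 271, 159.8, 135, 99.9 and 142 CPM stretched. Animal 1 was the highest in each group, at 487 CPM in S against 123 to 147 in the other animals, and the groups overlapped. Hspb1 rose by 0.69 ± 0.17 without inhibitor in 5 of 5 animals (adjusted p = 0.00707) and by 0.48 without animal 1 (adjusted p = 0.0144; 0.002 to 0.174 across alternatives). The call was lost with no term for the animal (adjusted p = 0.174). With inhibitor the change was 0.15 ± 0.17 (adjusted p = 0.537). Hspb8, the partner of Bag3, had changes of 0.19 ± 0.23 and 0.58 ± 0.24 (adjusted p = 0.581 and 0.0654). Cryab, alphaB-crystallin, had changes of 0.08 ± 0.18 and 0.20 ± 0.18, and its level ranged from 77.6 to 448 CPM between the animals of NS.

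Mitochondrial chaperones fold proteins imported into the matrix, with Hspd1 and Hspe1 as the barrel and lid of HSP60, Hspa9 as its HSP70 and Trap1 as its HSP90. Of these 4 genes, 0% were called higher without inhibitor and 25% with it, beside 12.5% and 15.2% of all tested genes. Hspd1 was the 1 gene called, and with inhibitor alone. It was at 342, 233, 259, 339 and 303 CPM in NS_PI and 466, 407, 433, 383 and 356 CPM in S_PI, without overlap. Without inhibitor it was at 308, 252, 337, 386 and 295 CPM in NS and 343, 461, 428, 375 and 357 CPM in S. Animals 2 and 3 had the largest increases in both comparisons. The log2 change was 0.48 ± 0.14 with inhibitor (adjusted p = 0.0141) and 0.33 ± 0.14 without it (adjusted p = 0.0906). The call was lost on leaving out animal 2 (adjusted p = 0.0508) or 3 (0.0816; 0.00572 to 0.0816 across alternatives). Hspe1, which shares the promoter region printed for Hspd1, had changes of -0.13 ± 0.26 and 0.05 ± 0.25, with 20.3 to 65.6 CPM over all libraries. Hspa9 had changes of 0.14 ± 0.24 and 0.52 ± 0.26, and Trap1 of -0.25 ± 0.16 and -0.24 ± 0.16, none of them called.

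TRiC is built of 8 different subunits. Of their 8 genes, 1 was called in each comparison (12.5% in each, beside 12.5% and 15.2% of all genes called higher), Cct3 without inhibitor and Cct6a with it. Log2 changes of the 8 ran from -0.19 to 0.42 without inhibitor and from 0.06 to 0.33 with it, with medians of 0.08 and 0.19. Tcp1, subunit alpha, was at 78.5, 60.7, 40.9, 43.6 and 56.4 CPM in NS and 57.3, 60.3, 57.5, 58 and 47.6 CPM in S. With inhibitor it was at 72.6, 50.0, 45.3, 49.7 and 57.2 CPM unstretched and 92.8, 63.4, 58.9, 64 and 66.1 CPM stretched, where 5 of 5 animals were higher. Its changes were 0.03 ± 0.14 and 0.33 ± 0.14 (adjusted p = 0.908 and 0.0795), the first with a sign that turned under 4 alternatives. Cct2, subunit beta, was at 331, 289, 285, 289 and 362 CPM in NS and 232, 266, 249, 336 and 288 CPM in S. Its inhibitor groups were at 299, 258, 316, 335 and 311 CPM in NS_PI and 363, 256, 299, 351 and 314 CPM in S_PI. All of these groups overlapped, and the changes of -0.19 ± 0.12 and 0.06 ± 0.12 had 95% intervals of -0.45 to 0.08 and -0.21 to 0.32.

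Cct3, subunit gamma, rose from 362 ± 86 to 476 ± 58.6 CPM in 4 of 5 animals, by 0.42 ± 0.14 (adjusted p = 0.035). This call was lost on leaving out animal 1, 2, 3 or 4 (adjusted p = 0.0757, 0.131, 0.0721 and 0.0861; 0.0176 to 0.159 across alternatives). Cct6a, subunit zeta, rose from 113 ± 15.1 to 143 ± 26.8 CPM with inhibitor, by 0.33 ± 0.12 (adjusted p = 0.0399). That call held under 4 of 13 alternatives and was lost on leaving out animal 1, 2, 3 or 5 (adjusted p = 0.1, 0.117, 0.0519 and 0.216; 0.0221 to 0.216 across alternatives). Of these 4, 1 sums Hspa1a and Hspa1b and leaves the counts of Cct6a unchanged. The other subunits had changes without inhibitor of 0.10 ± 0.15 (Cct4), 0.23 ± 0.15 (Cct5), 0.06 ± 0.14 (Cct7) and 0.01 ± 0.11 (Cct8). Summed over the 8 genes, TRiC averaged 3161.7 ± 199.8 and 3472.3 ± 429 CPM in NS and S, and 2934.7 ± 214 and 3351.1 ± 192 CPM in NS_PI and S_PI. Cct5 reached 749.8 CPM in stretched cells of animal 1, against 273 to 377 CPM in the other animals, while Cct7 was lowest there, at 209 CPM against 328 to 372.

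**Figure D3:**
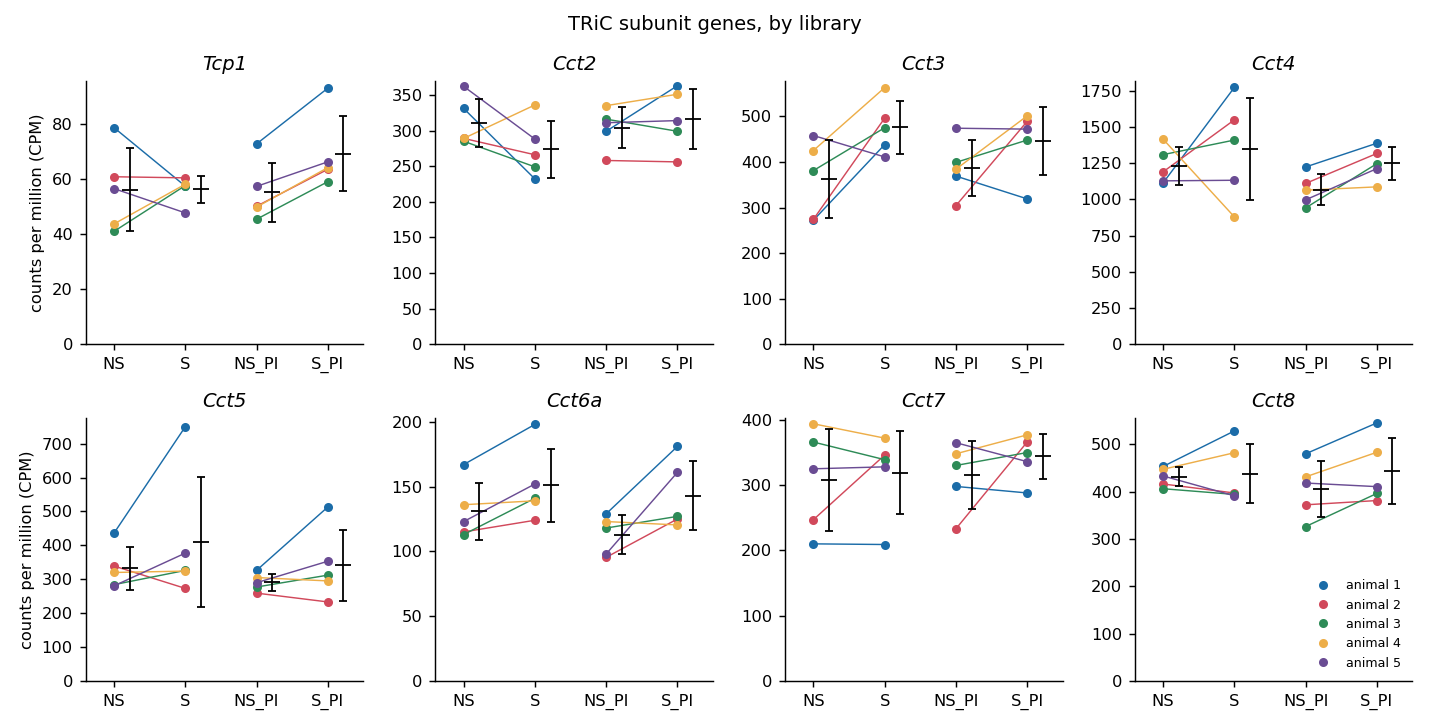
Level of the 8 TRiC subunit genes in every library, in CPM, drawn as in the plot of the induced members: 1 colour for each animal, lines joining unstretched and stretched cells, black marks for the mean and SD of 5 libraries. Stretched and unstretched values overlap for every subunit in both comparisons, and Cct5 in animal 1 reaches 749.8 CPM.

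NS_PI vs NS and S_PI vs S asked what the PERK inhibitor does without and with stretch, and the interaction whether it alters the stretch effect. By the edgeR test 0 of 43 members and 0 of 8320 genes (0%) were called in each of these. At an unadjusted p below 0.05, 3 members and 455 genes (5.47%) passed in NS_PI vs NS, 0 members and 340 genes (4.09%) in S_PI vs S, and 3 members and 345 genes (4.15%) in the interaction. DESeq2 called 0 members in each of them, and of all tested genes 5 in NS_PI vs NS, 0 in S_PI vs S and 0 in the interaction. The log2 change of Hspa4l with stretch differed by 1.51 ± 0.41 between cells with and without inhibitor (unadjusted p = 0.00141, adjusted p = 0.984). In unstretched cells Hspa4l had a log2 change of -1.12 ± 0.34 with inhibitor, with lower values in 5 of 5 animals (unadjusted p = 0.00327, adjusted p = 0.646). Its reads per library were 10 to 31 in NS and 2 to 18 in NS_PI. Hspa1a had an interaction of -0.73 ± 0.32 (unadjusted p = 0.0314). In unstretched cells its values were higher with inhibitor in 5 of 5 animals, with a log2 change of 0.69 ± 0.23 (unadjusted p = 0.00784, adjusted p = 0.81). For Hspa1b, its near copy, the interaction was 0.09 ± 0.47, and for both genes summed -0.29. Hspb1 had an interaction of -0.54 ± 0.24 (unadjusted p = 0.0384), and Hspa9 a change of -0.70 ± 0.25 in NS_PI vs NS (unadjusted p = 0.011). None of these values passed the adjustment over all genes. The median standard error of the members' interaction was 0.23, beside median stretch changes of 0.21 and 0.28.

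**Figure D4:**
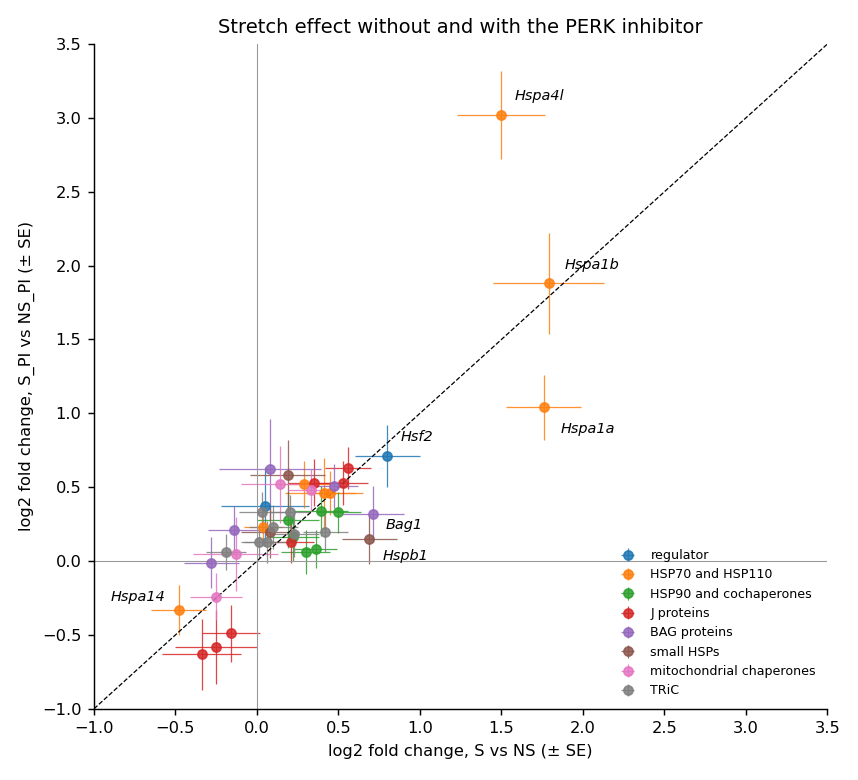
Log2 fold change with stretch without inhibitor (horizontal axis) and with inhibitor (vertical axis) for the 43 tested members, coloured by role, with standard errors as bars, n = 5 animals per group. The dashed line marks equal effects, from which Hspa4l (1.5 and 3.02) lies furthest above and Hspa1a (1.76 and 1.04) furthest below.

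Related genes outside the member list were taken from 4 further lists, written with earlier results of these data known. Without and with inhibitor the share called in either direction was 13.3% and 13.3% of 15 tested partners of HSP70 and HSP90, and 0% and 10% of 10 further J proteins. It was 14.3% and 28.6% of 7 prefoldin and TRiC partners, and 20% and 20% of 10 further mitochondrial chaperones and proteases. Each share lay below that of all tested genes, 24.9% without and 30.5% with inhibitor. By this measure the members of the main list stood at 32.6% and 27.9%, the second also below all genes. Counted by direction, not every share was below. Without inhibitor 13.3% of the HSP70 and HSP90 partners were higher, beside 12.5% of all genes. In the same comparison 20% of the mitochondrial genes were lower, beside 12.4%. Among 15 tested partners of HSP70 and HSP90, Ptges3 (p23) rose by 0.41 ± 0.12 and 0.49 ± 0.12 and the cyclophilin Ppid by 0.72 ± 0.22 and 0.83 ± 0.22, without and with inhibitor, and 0 fell. Of 10 further J proteins, Dnajc21 rose with inhibitor, by 0.55 ± 0.20, and 0 fell. Of 7 prefoldin and TRiC partners, Txndc9, a thioredoxin-like cofactor of TRiC, had changes of -0.48 ± 0.15 and -0.70 ± 0.15 and the prefoldin subunit Pfdn5 one of -0.50 ± 0.15 with inhibitor, each called lower. Of 10 further mitochondrial chaperones and proteases, the protease Htra2 was lower in both (-0.59 ± 0.21 and -0.62 ± 0.21) and the cochaperone Hscb without inhibitor (-0.71 ± 0.21). The protease Lonp1 was higher with inhibitor (1.13 ± 0.42).

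The authors' deposited table of a DESeq2 comparison that controls for the animal lists 45 of the members, and 7 of them have an adjusted p below 0.05 in that table: Hspa1a, Hspa1b, Hspa4l, Hsf2, Hspb1, Bag1 and Dnaja1. All 7 were also called here in S vs NS. The header of the authors' deposited table gives neither the groups nor the direction, and its log2 values for these genes are negative, -1.56 for Hspa1a and -1.25 for Hspa4l. Of its members, 5 appear under 2 identifiers each: Bag5, Hsp90aa1, Hspa1a, Hspa1b and Hspa8. Hspa1a and Hspa1b carry the same 2 identifiers.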

How the data were processed

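The authors deposited a table of raw read counts per gene symbol for 20 QuantSeq 3' end libraries, and the submitters' processing notes name STAR, HTSeq and the build rn6. Their versions, and the annotation, are not given in these sources. Entries that name no gene (16.2 to 24.5% of records outside annotated genes, 35.5 to 57.7% aligned to several places) were left out. The authors also deposited a DESeq2 table, which holds, per the file headers, mean normalized counts (a signal, not raw counts), log2 changes and standard errors, the Wald statistic (a score), and p-values before and after adjustment.

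Counts were filtered with filterByExpr (a cut of 5.55 CPM, in 5 libraries), scaled by TMM and tested with the quasi-likelihood F test of edgeR 4.0.16 (R 4.3.3, limma 3.58.1) in 1 fit of group and animal to 20 libraries, with 12 residual degrees of freedom. The p-values were adjusted by Benjamini-Hochberg over all 8320 tested genes, and genes below 0.05 were called. CPM values use TMM library sizes. Errors after ± are standard errors for log2 changes and SD for CPM, n = 5 animals. Standard errors are the change divided by the root of F. 95% intervals use a t quantile at 12 degrees of freedom. Signs in each animal used log2 ratios with 0.5 CPM added. Libraries with the same number were taken as 1 animal and blocked, since each library pools monolayers of 1 animal and the deposited comparison controls for the rat. Deviations from group means correlated with r = 0.316 to 0.788 between libraries of the same number, and 20 of 20 libraries correlated best with their own number.

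Members and gene lists were chosen with earlier results of these data known. A further list of related genes is not reported here. Values in every library were given for members called with stretch at a log2 change of at least 0.6, members called for the inhibitor or interaction (0 genes), and Hsf1, Hspa8, Hsp90ab1, Hspb1, Cct2 and Tcp1. Values of Dnajb1, Dnajb2, Bag3 and Hspd1 were added after their results were seen. Alternatives were DESeq2 1.42.0, 3 other scalings, no filter, no block, the compared groups alone, leaving out each animal, and summed Hspa1a and Hspa1b. The summed fit leaves the counts of all other members unchanged and is no check of their calls. The fit was tested on simulated data drawn without differences between animals, so that test does not check the term for the animal. Figures were drawn with matplotlib 3.10.9 in Python 3.11.15.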

Additional observations from a re-analysis of the deposited data

Results flagged for a closer look

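For 22 of 172 sets of 5 libraries, taken as each tested member in each group, 1 library stood far from the others: its gap to the nearest value was more than 0.71 of the whole range. By chance about 1 in 20 such sets would show this, and sets of one animal are not independent of each other. Animal 1 held 19 of the 22, animal 2 held 0, and animals 3, 4 and 5 held 1 each.

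In 18 of these 19 animal 1 was the highest of its group, given with the next value. These were Hspa4 in NS at 523 CPM (next 375), S at 593 CPM (next 388), S_PI at 689.9 CPM (next 337), Hspa4l in S at 75.4 CPM (next 27.7), S_PI at 95.1 CPM (next 34.3), Hsp90ab1 in S at 5055.0 CPM (next 2964.0), Stip1 in S at 85 CPM (next 68.2). They also were Cacybp in S at 508 CPM (next 173), S_PI at 307 CPM (next 185), Dnajb2 in S at 63.4 CPM (next 29.6), Dnajb4 in S at 101 CPM (next 38), Bag3 in S at 249 CPM (next 94), S_PI at 204 CPM (next 112). The remaining ones were Hspb1 in S at 487 CPM (next 147), Hspb8 in NS at 357 CPM (next 169.9), Hspa9 in S_PI at 73.3 CPM (next 24.4), Tcp1 in S_PI at 92.8 CPM (next 66.1), Cct5 in S at 749.8 CPM (next 377).

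Far below the other libraries of their group lay Hsp90ab1 in NS_PI of animal 3 at 1585.6 CPM (next 2210.9), Dnaja2 in S of animal 4 at 307 CPM (next 431), Tcp1 in S of animal 5 at 47.6 CPM (next 57.3), Cct7 in S of animal 1 at 209 CPM (next 328). The cause was not tested.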

How the results depend on the processing

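Hspa1a, Hspa1b and Hspa4l in both stretch comparisons, Hsf2 in S vs NS and Dnaja1 in S_PI vs NS_PI kept their direction and their call under every alternative run for them. In S vs NS the 13 members higher became 7 with no replicate block (818 genes called in place of 2075), 6 with the compared groups alone, and 7 to 10 leaving out 1 animal at a time. The 1 lower became 0 with DESeq2, DESeq2 size factors, no filter, no block or the compared groups alone, and 0 to 1 leaving out an animal. The 1 lower without animal 2 was Bag2, and Hspa14 was lost on leaving out any animal. In S_PI vs NS_PI the 12 higher became 7 with no replicate block and 5 to 12 leaving out an animal, with 5 without animal 3. The 0 lower became 2 with upper-quartile scaling, 3 with library size alone, 2 with no filter, 1 with the compared groups alone, and 0 to 2 leaving out an animal. Scaling by library size alone moved the median change of all tested genes to -0.12 (log2) in both stretch comparisons. Of the alternatives, 0 called a member for the inhibitor or the interaction. The interaction could not be fitted with the compared groups alone.

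Uncalled changes turned sign near 0. With upper-quartile scaling, library size and the compared groups alone, Hsf1 in S vs NS was -0.02, -0.07 and -0.01. With the first 2 scalings Tcp1 in S vs NS was -0.03 and -0.09 and Cct2 in S_PI vs NS_PI was -0.02 and -0.04. Summed with Hspa1b, Hspa1a in S_PI vs S was 0.11. Leaving out 1 animal at a time turned the sign of these changes, given with their range. In S vs NS, Hsf1 ran from -0.15 to 0.34 and Tcp1 ran from -0.06 to 0.16. In S_PI vs NS_PI, Cct2 ran from -0.01 to 0.10. In NS_PI vs NS, Hsf2 ran from -0.19 to 0.03, Hspa1b ran from -0.02 to 0.23, Hspa8 ran from -0.11 to 0.02, Hsp90ab1 ran from -0.24 to 0.05, Dnaja1 ran from -0.10 to 0.05, Tcp1 ran from -0.06 to 0.06 and Cct2 ran from -0.09 to 0.02. In S_PI vs S, Hsf1 ran from -0.21 to 0.37, Hsf2 ran from -0.27 to 0.07 and Dnaja1 ran from -0.07 to 0.11. In the interaction, Hsf1 ran from -0.00 to 0.67, Hsf2 ran from -0.30 to 0.25, Hspa1b ran from -0.09 to 0.34, Hsp90ab1 ran from -0.23 to 0.10 and Dnaja1 ran from -0.10 to 0.21. The cause was not tested. The depth of 999209 to 3131541 counts limits genes such as Hspa4l, with 2 to 18 reads in NS_PI.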

Other observations

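The animals with the largest ratios of stretched to unstretched cells differed between the genes that rose with stretch. The 7 genes named here were higher in S than in NS in 4 or 5 of 5 animals. For Hspa1a the log2 ratio of S to NS was 1.67, 2.78, 2.35, 1.54 and 0.46 in animals 1 to 5, and for Hspa1b it was 1.08, 3.32, 3.14, 0.80 and 0.59. Animals 2 and 3 led for both, and also for Dnaja1, at 1.12 and 0.91 against -0.03 to 0.42 in the others. Animal 1 led for Hspb1 (1.32 against 0.26 to 0.85), for Bag1 (1.40 against 0.02 to 0.95) and for Bag3 (1.14 against -0.10 to 0.51). For Hspa4l animals 1 and 5 led, at 2.36 and 1.90 against 0.56 to 1.21. With inhibitor the same animals led for Hspa1b, with 2.24 and 3.42 in animals 2 and 3 against 0.89 to 1.67, for Hspa1a, with 1.30 and 1.48 against 0.39 to 1.12, and for Hspa4l, with 3.43 and 3.58 in animals 1 and 5 against 2.15 to 2.89. Animal 1 also led for Hspb1 (0.59 against -0.02 to 0.15), Bag1 (0.91 against 0.07 to 0.36) and Bag3 (0.75 against 0.16 to 0.69). For Dnaja1 animals 3 and 4 led instead, with ratios of 0.47, 0.60, 0.80, 0.72 and 0.59 in animals 1 to 5. These ratios are values of single animals, and differences between animals were not tested.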
